A study of Homo sapiens with 9 samples.

Results

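The genes described here are 10 genes of the YAP/TEAD arm of the Hippo pathway, taken by symbol from the 16772 genes of the deposited expression table. They are the target genes ANKRD1, CCN1 and CCN2, the YAP-binding or LATS-binding proteins AMOTL1, AMOTL2 and AJUBA, the kinase gene LATS2, the coactivator genes YAP1 and WWTR1, and the transcription factor gene TEAD1. All 10 were found, and all 10 passed the filter on low values that 11525 genes passed. The set was chosen by gene name with the FPKM values of these 9 libraries in view, so the levels of its members and the differences between groups are given as a description, without a test.

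RNA was sequenced from DU145, a human prostate cancer cell line whose genotype is labelled WT, at day 6 of treatment. The groups were cells given H93 at 20 µM, a compound that the series title calls targeted at UHRF1, cells given 500 nM SAHA, also known as vorinostat, which inhibits histone deacetylases, and cells given the solvent DMSO, with 3 libraries each. H93 and SAHA were also dissolved in DMSO, the medium was renewed every day, and the dose units are read as micromolar and nanomolar. All groups are 1 cell line, and the labels do not say that the 3 libraries of a group were separate cultures, so the p-values refer to library-to-library spread that could be purely technical.

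In the Hippo pathway a kinase cascade ending in LATS1 and LATS2 phosphorylates the coactivators YAP and TAZ (the product of WWTR1) and keeps them out of the nucleus or marks them for degradation. Unphosphorylated YAP and TAZ bind TEAD factors and raise target genes such as CCN1, CCN2 and ANKRD1. Some targets, among them LATS2 and AMOTL2, encode inhibitors of YAP and form a negative feedback. The activity of YAP and TAZ is set mainly at the protein level, which RNA sequencing does not measure.

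TEAD factors bind the M-CAT element, and the promoters of the members were searched for it because YAP and TAZ bind TEAD factors. The motif was GGAATG or its reverse complement CATTCC, in the 250 bases before each RefSeq transcript start (build GRCh38.p14). RefSeq gave 11 starts for 8 of the members, and CCN1 and TEAD1 were not matched. In all, 5 of the 11 windows held the motif, against 11.9% of 35116 windows of the same length over all genes. The CCN2 window held 3 matches, as 0.0826% of all windows did with 3 or more, and the ANKRD1 window held 2, as 0.940% did with 2 or more. The CCN2 stretch that holds its 3 matches lies at chr6:131951442-131951561 on the minus strand. It is printed 5′ to 3′ with the motif in capitals.
CCN2: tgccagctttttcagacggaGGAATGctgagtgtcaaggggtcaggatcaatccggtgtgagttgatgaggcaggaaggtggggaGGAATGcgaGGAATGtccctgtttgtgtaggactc

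The CCN2 matches began 169, 104 and 95 bases before the start. The 2 ANKRD1 matches began 220 and 128 bases before it. The flanked stretches printed below that hold them lie on the minus strand of chromosome 10, at chr10:90921290-90921319 and chr10:90921198-90921227. Between the 2 matches lay 1 match to the AP-1 motif TGANTCA (which reads the same on both strands), within the printed stretch at chr10:90921265-90921293. That motif was found in 6.57% of all windows and in no other member window. GENCODE release 29 places the ANKRD1 start 189 bases further upstream, so that the nearer TEAD match falls inside the gene by that annotation. The sites are shown with their flanks so that they can be set beside the single matches of other members.
ANKRD1 at 220 bases: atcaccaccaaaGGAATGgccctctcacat
ANKRD1 at 128 bases: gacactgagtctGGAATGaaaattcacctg
ANKRD1 AP-1 motif at 195 bases: acatttcttccTGATTCAcatattcagca
AMOTL2 at 69 bases, its second start: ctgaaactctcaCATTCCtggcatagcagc
AJUBA at 59 bases, its second start: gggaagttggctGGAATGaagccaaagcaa
YAP1 at 162 bases: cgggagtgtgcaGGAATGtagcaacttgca

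The printed AMOTL2 stretch, with its flanks, lies at chr3:134374499-134374528 and the AJUBA stretch at chr14:22976884-22976913, both on the minus strand. The YAP1 stretch lies at chr11:102110273-102110302 on the plus strand. The windows of AMOTL1, LATS2 and WWTR1, and the first starts of AMOTL2 and AJUBA, held no match, which says only that these letters are not in these 250 bases. The CArG box, the site of the serum response factor, was in 0 of the 11 windows and in 1.16% of all windows. A match is a description of the sequence and not evidence of binding.

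**Figure D1:**
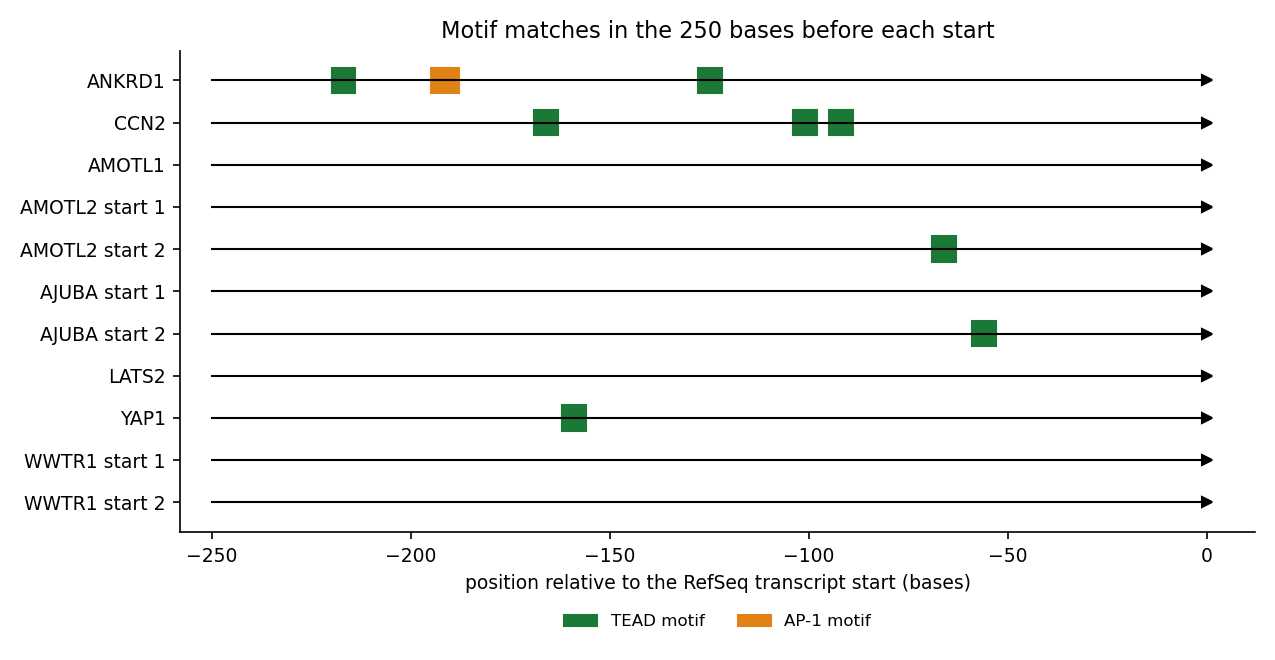
Positions of TEAD motif matches (green) and the AP-1 motif match (orange) in the 250 bases before each of the 11 RefSeq starts of 8 members, with the start at 0 on the right. CCN2 carries 3 TEAD matches, ANKRD1 carries 2 and an AP-1 match, and AMOTL2, AJUBA and YAP1 carry 1 each.

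ANKRD1, CCN1 and CCN2 stood clearly higher after H93 than in DMSO, with SAHA between them. Levels are given in FPKM, fragments per kilobase of transcript scaled to library size, as the authors deposited them. ANKRD1, which encodes a nuclear cofactor also found in the muscle sarcomere, had 518, 522 and 507 FPKM in the H93 libraries, 293, 303 and 289 in the SAHA libraries, and 78.9, 79.8 and 78.8 in the DMSO libraries. The 3 groups did not overlap, and the lowest H93 library lay above every SAHA library. The mean of ANKRD1 was 516 ± 8.15 with H93, 295 ± 7.24 with SAHA and 79.1 ± 0.532 with DMSO (SD, n = 3 each), a ratio of means of 6.51 for H93 over DMSO, 3.73 for SAHA over DMSO and 1.75 for H93 over SAHA. In bulk RNA fewer cells with a transcript and less of it per cell cannot be told apart. By mean level ANKRD1 took place 83 of the 16772 genes with H93, place 142 with SAHA and place 804 with DMSO.

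Differences were taken on the log2(FPKM + 1) scale, where those of genes with low values come out too small. The ANKRD1 difference was 2.69 (SE 0.0228) for H93 against DMSO, 1.89 for SAHA against DMSO and 0.80 for H93 against SAHA. It took place 11 of 11525 kept genes by absolute size in the first comparison, place 14 in the second and place 6 in the third. These comparisons share libraries, so the 3 places are not independent of one another. In GENCODE release 29 (GRCh38) ANKRD1 lies on chromosome 10 from 90912096 to 90921276 on the minus strand and is protein-coding.

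CCN2 encodes connective tissue growth factor, a secreted matricellular protein. Its level was 121, 124 and 125 FPKM in the H93 libraries, 83.5, 79.5 and 83.8 in the SAHA libraries, and 47.7, 48.4 and 49.4 in the DMSO libraries. Every H93 library was above every SAHA library, and every SAHA library above every DMSO library. The log2 difference was 1.33 (SE 0.0270) for H93 against DMSO, 0.75 for SAHA against DMSO and 0.58 for H93 against SAHA. CCN2 lies on chromosome 6 from 131948176 to 131951373, and an antisense transcript, AL133346.1, overlaps its exons. The use of strand in the counting is not given in the sources used here, so reads of that transcript could not be told from those of CCN2.

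CCN1, which encodes the matricellular protein CYR61, was the most abundant member in DMSO cells. It had 486, 476 and 476 FPKM in the H93 libraries, 431, 430 and 443 in the SAHA libraries, and 283, 287 and 286 in the DMSO libraries. The groups kept the same order without overlap, but lay closer together than for ANKRD1, with log2 differences of 0.74 (SE 0.0201) for H93 against DMSO, 0.60 for SAHA against DMSO and 0.14 for H93 against SAHA. CCN1 lies on chromosome 1 from 85580761 to 85583962.

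ANKRD1, CCN1 and CCN2 did not differ between groups in the same proportion. The ratio of ANKRD1 to CCN1 FPKM was 1.08 ± 0.0192 in the H93 libraries, 0.679 ± 0.0265 in the SAHA libraries and 0.277 ± 0.00181 in the DMSO libraries (SD, n = 3 each). ANKRD1 was thus above CCN1 in all H93 libraries and below it in all SAHA and DMSO libraries. The ratio of CCN2 to CCN1 differed less, at 0.257 ± 0.00714 with H93, 0.189 ± 0.00451 with SAHA and 0.170 ± 0.00235 with DMSO (n = 3 each).

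**Figure D2:**
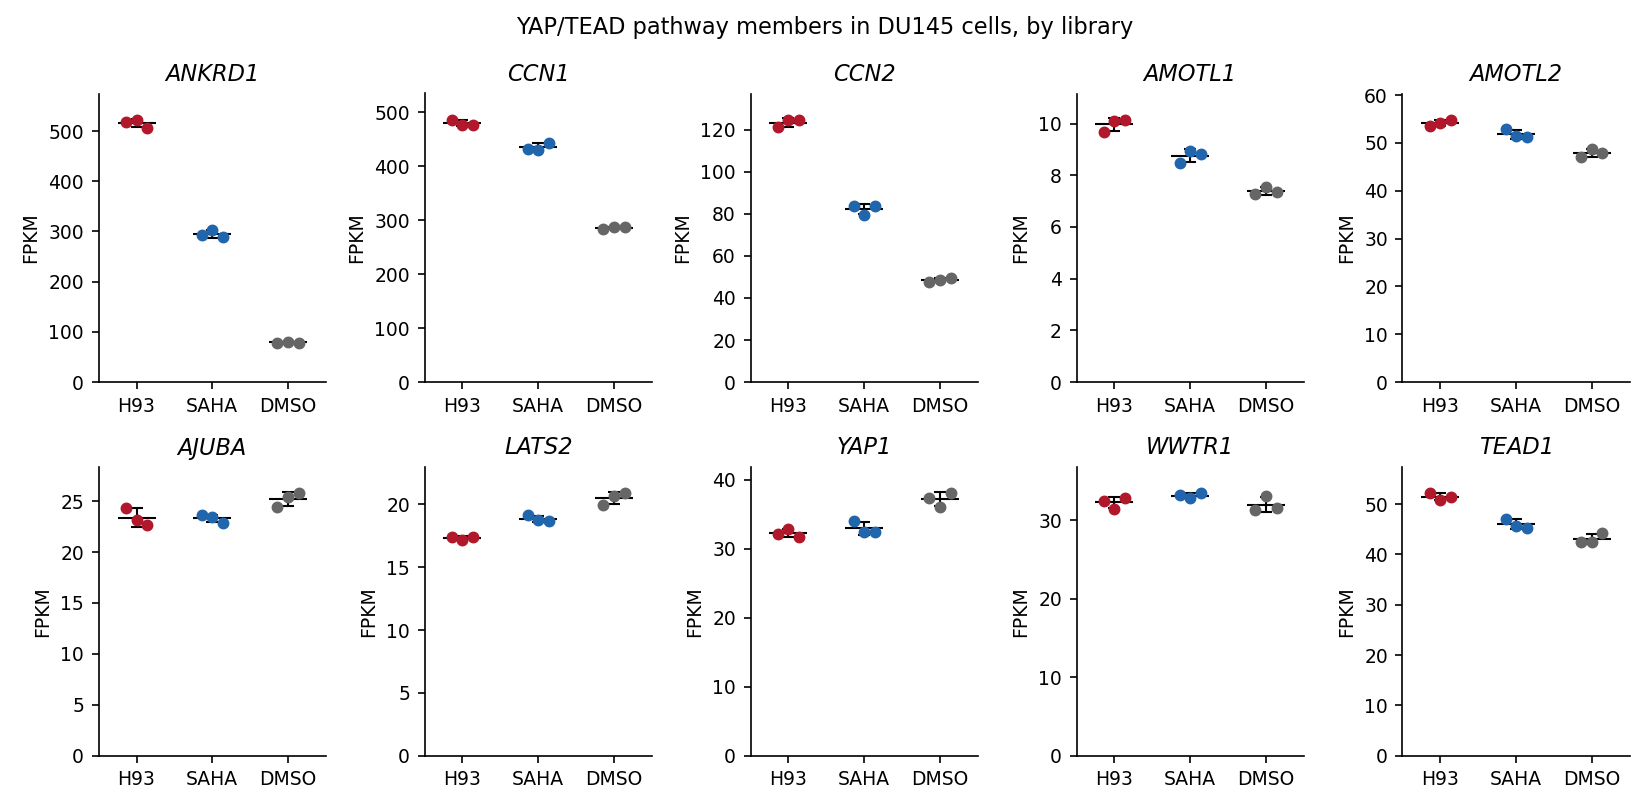
FPKM of the 10 members in each library (points), with the group mean and SD (black bars, n = 3), for H93, SAHA and DMSO; each axis starts at 0. ANKRD1, CCN1 and CCN2 show 3 separate levels, and WWTR1 overlaps between all groups.

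AMOTL1, AMOTL2 and LATS2 differed far less than ANKRD1 and CCN2, and not all in 1 direction. In H93 against SAHA the log2 difference of AMOTL1 was 0.17, beside 0.14 for CCN1. AMOTL2, an angiomotin-family protein that binds YAP at cell junctions, had 53.5, 54.1 and 54.8 FPKM in the H93 libraries, 52.9, 51.5 and 51.2 in the SAHA libraries, and 47.1, 48.7 and 47.9 in the DMSO libraries. The groups did not overlap, with a log2 difference of 0.17 (SE 0.0248) for H93 against DMSO. Its paralog AMOTL1, the lowest member in every group, had 9.67, 10.1 and 10.1 FPKM in the H93 libraries, 8.48, 8.96 and 8.83 in the SAHA libraries, and 7.27, 7.54 and 7.35 in the DMSO libraries. AMOTL1 showed the same order with a larger log2 difference, 0.39 (SE 0.0375) for H93 against DMSO and 0.22 for SAHA against DMSO. The ratio of AMOTL2 to AMOTL1 was 5.43 ± 0.0905 with H93, 5.93 ± 0.269 with SAHA and 6.48 ± 0.0303 with DMSO (n = 3 each).

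LATS2, a kinase that phosphorylates YAP and TAZ, was lower in both treated groups. It had 17.4, 17.1 and 17.4 FPKM in the H93 libraries, 19.1, 18.8 and 18.7 in the SAHA libraries, and 19.9, 20.6 and 20.9 in the DMSO libraries. No group overlapped another, and the order was the reverse of that of ANKRD1, with log2 differences of -0.23 (SE 0.0295) for H93 against DMSO and -0.11 for SAHA against DMSO. The level of LATS2 was 3.22 ± 0.139 times that of its paralog LATS1 with H93, 3.79 ± 0.117 times with SAHA and 3.99 ± 0.236 times with DMSO (n = 3 each).

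AJUBA, a LIM-domain protein that restrains LATS kinases at junctions, had 24.4, 23.2 and 22.6 FPKM in the H93 libraries, 23.6, 23.4 and 22.9 in the SAHA libraries, and 24.4, 25.4 and 25.8 in the DMSO libraries. Both treated groups lay below DMSO and overlapped each other, and the highest H93 library, at 24.36, lay just under the lowest DMSO library, at 24.43. The log2 difference was -0.10 (SE 0.0338) for H93 against DMSO and -0.11 for SAHA against DMSO. AJUBA shares exons with AL132780.3, a protein-coding gene on the same strand, so its reads may be split between them.

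The coactivators and the TEAD factor differed by less than ANKRD1 and CCN2 did. YAP1 had 32.1, 32.9 and 31.7 FPKM in the H93 libraries, 34.1, 32.5 and 32.4 in the SAHA libraries, and 37.4, 36.1 and 38.1 in the DMSO libraries. Both treated groups were below DMSO, with log2 differences of -0.20 (SE 0.0306) for H93 and -0.17 for SAHA, and overlapped each other. WWTR1 had 32.5, 31.5 and 32.9 FPKM in the H93 libraries, 33.2, 32.8 and 33.4 in the SAHA libraries, and 31.3, 33.1 and 31.5 in the DMSO libraries. WWTR1 overlapped between all 3 groups, with a log2 difference of 0.01 (SE 0.0295) for H93 against DMSO. The sum of YAP1 and WWTR1 was 64.5 ± 0.128 FPKM with H93, 66.1 ± 1.02 with SAHA and 69.2 ± 0.414 with DMSO, and the ratio of YAP1 to WWTR1 was 1.00 ± 0.0410, 0.996 ± 0.0286 and 1.16 ± 0.0649 in the same order (n = 3 each).

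TEAD1, the DNA-binding partner, had 52.2, 50.9 and 51.4 FPKM in the H93 libraries, 47.1, 45.6 and 45.2 in the SAHA libraries, and 42.5, 42.5 and 44.2 in the DMSO libraries. The groups did not overlap, and the log2 difference was 0.25 (SE 0.0268) for H93 against DMSO, 0.09 for SAHA against DMSO and 0.16 for H93 against SAHA. TEAD1 was the most abundant of the 4 TEAD genes in every library. Its share of their summed FPKM was 63.1% ± 1.75 with H93, 59.6% ± 0.555 with SAHA and 51.7% ± 1.16 with DMSO, while the sum itself was 81.7 ± 2.08, 77.2 ± 1.12 and 83.4 ± 2.34 FPKM in that order (SD, n = 3 each). FPKM is scaled by length, so these shares compare genes, and the depth behind them is unknown.

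**Figure D3:**
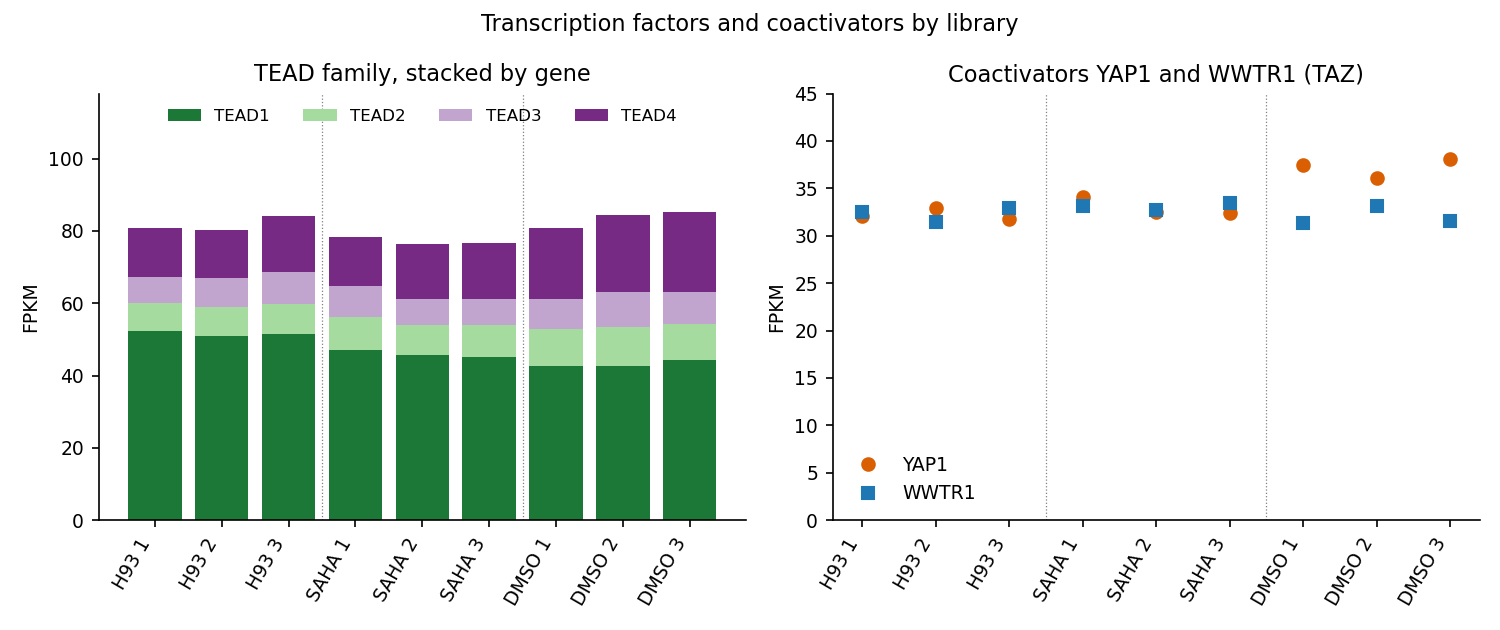
Left, FPKM of the 4 TEAD genes stacked in each library; right, FPKM of YAP1 and WWTR1 in each library, with H93, SAHA and DMSO libraries from left to right. TEAD1 takes a larger share in H93 libraries, and YAP1 lies above WWTR1 in all 3 DMSO libraries.

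By GENCODE release 29, all protein-coding, AMOTL1 lies on chromosome 11 from 94706431 to 94876753, AMOTL2 on chromosome 3 from 134355874 to 134375479, AJUBA on chromosome 14 from 22971174 to 22982642 and LATS2 on chromosome 13 from 20973032 to 21061547. YAP1 lies on chromosome 11 from 102110461 to 102233423, WWTR1 on chromosome 3 from 149517235 to 149736714 and TEAD1 on chromosome 11 from 12674591 to 12944483. AMOTL1, YAP1 and WWTR1 overlap exons of antisense genes (AP002383.2, AP000942.2 and WWTR1-AS1) and AMOTL2 those of the pseudogene RPL39P5 on its own strand, so part of their reads is uncertain in the same way as for CCN2 and AJUBA.

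Ordered by level, CCN1, ANKRD1 and CCN2 led in every group and were followed by AMOTL2 and TEAD1. WWTR1 and YAP1 overlapped in H93 and SAHA cells, and CCN2 and AMOTL2 overlapped in DMSO cells. All other neighbours in the order were separated in all libraries of their group. The coefficient of variation between the 3 libraries of a group ran from 0.672% to 3.82% over the members, with a median of 1.81%.

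Counted over the members, the H93 libraries lay wholly above the DMSO libraries for 6 of 10 and wholly below for 3, where 73.2% of all kept genes were separated in this way, 36.4% upward and 36.8% downward. For SAHA against DMSO the counts were also 6 above and 3 below, where 64.1% of all kept genes were separated, 29.7% upward and 34.4% downward. In H93 against SAHA 6 members lay above and 1 below, where 44.4% of all kept genes were separated, 25.6% upward and 18.8% downward. Nothing is read from these counts, since the members were chosen with the values known. The mean in SAHA cells lay between the H93 and DMSO means for 8 of the 10 members, all but AJUBA and WWTR1. ANKRD1 and CCN2 exceeded 2-fold in H93 against DMSO and ANKRD1 alone did in SAHA against DMSO, where 2.28% and 1.12% of kept genes were at least 2-fold apart with a limma adjusted p under 0.05. No member reached 2-fold in H93 against SAHA, where 0.0174% of kept genes did.

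**Figure D4:**
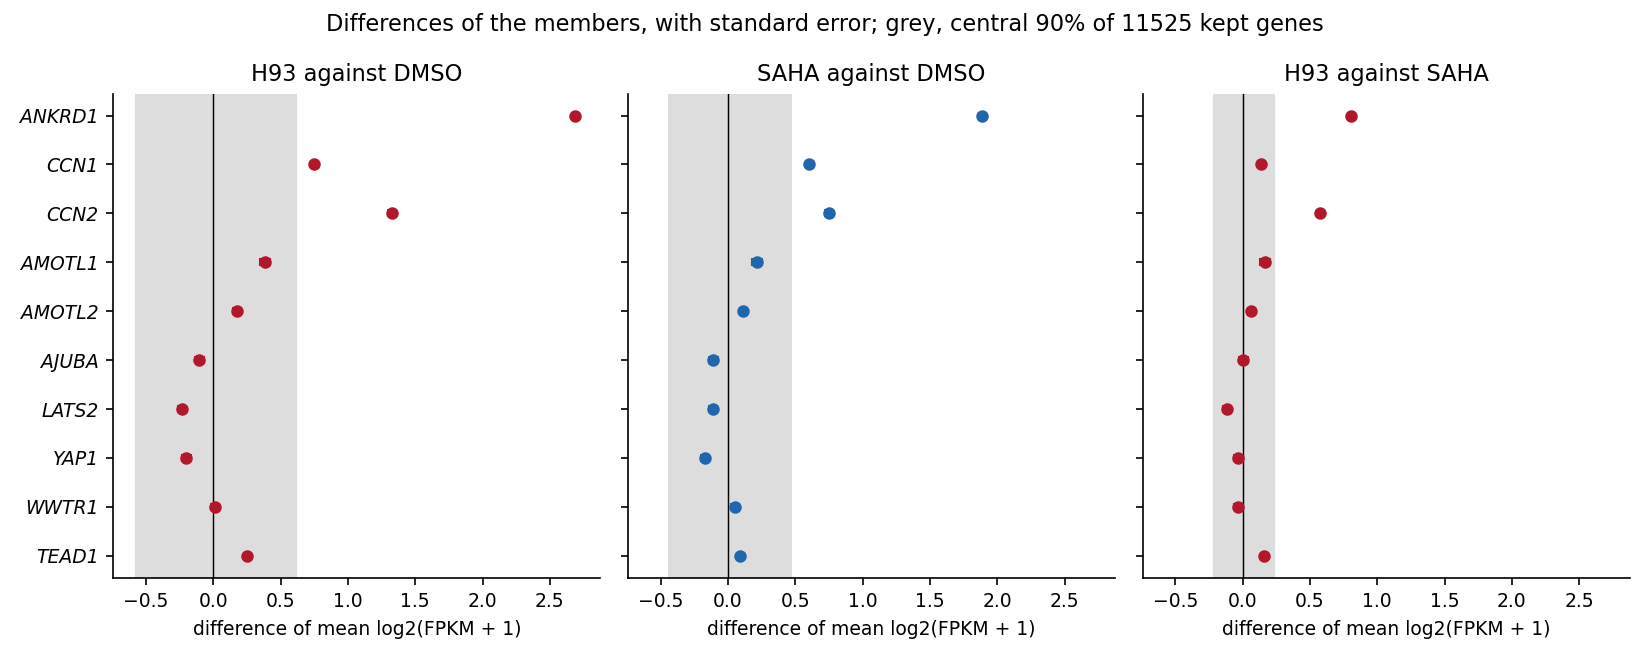
Difference of mean log2(FPKM + 1) for each member with its limma standard error, mostly smaller than the point, in the 3 comparisons; the grey band holds the central 90% of 11525 kept genes. ANKRD1, CCN2 and CCN1 lie to the right of the band for H93 and for SAHA against DMSO, and the other members lie inside it.

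The other genes of the pathway were taken from 8 lists of 79 genes, of which 76 were in the table and 69 passed the filter. They were tested with limma on log2(FPKM + 1) with Benjamini-Hochberg adjustment over all 11525 kept genes, and a gene rose or fell where the adjusted p was under 0.05. With H93 against DMSO, 32 of the 69 rose and 23 fell, a called share of 79.7%. Of all kept genes 69.8% were called in that comparison, 34.9% higher and 35.0% lower. With SAHA against DMSO, 29 rose and 21 fell, a called share of 72.5%, where 58.8% of all kept genes were called, 27.4% higher and 31.4% lower. In H93 against SAHA, 20 were higher and 8 lower, a called share of 40.6%, where 31.5% of all kept genes were called, 17.6% higher and 13.9% lower. The median log2 difference of the 69 genes was 0.05 for H93 against DMSO and 0.04 for SAHA against DMSO, beside 0.00157 and -0.0145 over all kept genes.

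Most calls in the upstream kinase core were upward. Of 15 kinase core and scaffold genes 8 rose and 1 fell with H93, and 7 rose and 2 fell with SAHA, with medians of 0.09 and 0.10 on the log2 scale. In each comparison 6 of the 15 were not called. The called share lay below the 69.8% of all kept genes with H93 and just above the 58.8% with SAHA. Of all kept genes 34.9% were called higher and 35.0% lower with H93, and 27.4% higher and 31.4% lower with SAHA. FRMD6, a FERM-domain activator of the cascade, rose to 39.5 ± 0.885 FPKM with H93 and 36.8 ± 1.46 with SAHA, against 20.3 ± 0.05 with DMSO (n = 3 each; limma log2 difference 0.92 and 0.83, adjusted p = 1.61e-10 and 7.86e-10). SAV1, the scaffold of the MST kinases, rose to 79.5 ± 1.29 FPKM with H93 and 71.7 ± 1.44 with SAHA, against 49.6 ± 0.951 with DMSO (limma log2 difference 0.67 and 0.52, adjusted p = 3.69e-10 and 6.58e-09). The kinase gene TAOK3 rose to 10.7 ± 0.0844 with H93 and 10.5 ± 0.279 with SAHA, against 6.42 ± 0.265 with DMSO. LATS1, the paralog of LATS2, stood at 5.38 ± 0.239 FPKM with H93, 4.97 ± 0.130 with SAHA and 5.15 ± 0.421 with DMSO and did not pass against DMSO in either (limma adjusted p = 0.375 and 0.549).

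Of 11 junction and LIM-domain partners 2 rose and 6 fell with H93, and 2 rose and 3 fell with SAHA. The called shares were 72.7% and 45.5%, beside 69.8% and 58.8% of all kept genes. TRIP6, a zyxin-family protein, fell to 21.8 ± 0.221 FPKM with H93 and 26.9 ± 1.89 with SAHA, against 40.4 ± 1.18 with DMSO (limma log2 difference -0.86 and -0.57, adjusted p = 3.22e-09 and 2.58e-07). The polarity gene SCRIB fell to 19.7 ± 0.278 with H93 and 21.2 ± 0.728 with SAHA, against 29.98 ± 0.904 with DMSO. WTIP, of the same family as AJUBA, fell to 0.519 ± 0.0259 FPKM with H93 and 0.536 ± 0.0656 with SAHA, against 1.29 ± 0.0272 with DMSO. Its mean reached 1 FPKM only in DMSO cells. WTIP passed the filter only through the DMSO libraries, so nothing is read from its fall, which stays in the counts. Of 4 tested TEAD and VGLL genes other than TEAD1, 1 rose and 2 fell with H93, and 1 rose and 3 fell with SAHA. Their called shares were 75.0% and 100%. TEAD4 fell to 14.1 ± 1.13 FPKM with H93 and 14.8 ± 0.956 with SAHA, against 21.0 ± 1.30 with DMSO (limma log2 difference -0.55 and -0.48, adjusted p = 4.68e-06 and 2.59e-05), and TEAD2 to 8.15 ± 0.237 with H93 and 8.79 ± 0.385 with SAHA, against 10.5 ± 0.484 with DMSO. VGLL4, a competitor of YAP for TEAD, rose to 14.3 ± 0.406 with H93 and 13.7 ± 0.518 with SAHA, against 11.6 ± 0.398 with DMSO.

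The degradation machinery, through which phosphorylated YAP and TAZ are ubiquitinated, was represented by 3 tested genes. With H93 1 rose and 0 fell, and with SAHA 1 rose and 1 fell. The called shares were 33.3% and 66.7%, beside 69.8% and 58.8% of all kept genes. FBXW11, a ubiquitin ligase subunit, rose to 28.4 ± 0.630 FPKM with H93 and 27.5 ± 0.609 with SAHA, against 22.6 ± 0.650 with DMSO. BTRC, its paralog, stood at 5.23 ± 0.0965 FPKM with H93, 4.94 ± 0.171 with SAHA and 5.43 ± 0.194 with DMSO; its limma adjusted p for SAHA was 0.0391, but 0.0902 and 0.112 without SAHA replicate 1 and 3, and 0.088 and 0.133 without DMSO replicate 2 and 3. The kinase gene CSNK1D stood at 19.7 ± 0.567 with H93, 20.0 ± 0.397 with SAHA and 20.7 ± 0.421 with DMSO (limma adjusted p = 0.0806 for H93, 0.0435 without H93 replicate 3).

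Other target genes moved in both directions. Of 16 tested genes of a published YAP/TAZ target signature, without the members, 9 rose and 6 fell with H93, and 9 rose and 5 fell with SAHA. The medians were 0.20 and 0.17 on the log2 scale. The called shares were 93.8% and 87.5%, beside 69.8% and 58.8% of all kept genes. GADD45A, a growth arrest gene, rose to 54.6 ± 2.93 FPKM with H93 and 40.8 ± 1.21 with SAHA, against 18.8 ± 1.20 with DMSO (limma log2 difference 1.49 and 1.08, adjusted p = 8.30e-11 and 2.60e-09). CCDC80, a matrix protein gene, rose to 3.23 ± 0.136 with H93 and 3.31 ± 0.129 with SAHA, against 1.60 ± 0.0951 with DMSO, whereas FJX1 fell to 21.0 ± 1.45 with H93 and 25.3 ± 0.540 with SAHA, against 35.1 ± 1.33 with DMSO. Of 6 other genes often cited as targets 4 rose and 2 fell with H93, and 3 rose and 1 fell with SAHA. Their called shares were 100% and 66.7%. THBS1, encoding thrombospondin, fell to 53.2 ± 0.160 FPKM with H93 and 49.6 ± 1.59 with SAHA, against 85.9 ± 1.45 with DMSO (limma log2 difference -0.68 and -0.78, adjusted p = 4.91e-10 and 2.74e-10). EDN1, encoding endothelin, rose to 2.74 ± 0.284 with H93 and 2.13 ± 0.0306 with SAHA, against 1.62 ± 0.173 with DMSO.

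The paralogs of ANKRD1 and of the CCN members were tested too. Of 4 tested paralogs 1 rose and 3 fell, both with H93 and with SAHA. The called share was 100% in both, beside 69.8% and 58.8% of all kept genes. CCN3, another matricellular protein of the CCN family, rose to 2.55 ± 0.229 FPKM with H93 and 2.10 ± 0.182 with SAHA, against 0.861 ± 0.101 with DMSO. CCN3 passed the filter only through the H93 and SAHA libraries, so nothing is read from its rise, which stays in the counts. ANKRD2, a muscle ankyrin repeat gene related to ANKRD1, fell to 7.33 ± 0.322 with H93 and 9.21 ± 1.02 with SAHA, against 11.8 ± 0.146 with DMSO. CCN5 fell to 1.98 ± 0.342 FPKM with H93, against 3.41 ± 0.297 with DMSO (limma adjusted p = 8.42e-05), and stood at 2.66 ± 0.296 with SAHA. Its limma adjusted p for SAHA was 0.0193, but 0.0863 without SAHA replicate 3, 0.0708 and 0.0562 without DMSO replicate 1 and 3, and 0.052 with no filter on low values.

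Of 10 tested genes of the serum response factor, its MRTF cofactors and their cytoskeletal targets, 6 rose and 3 fell with H93, and 5 rose and 3 fell with SAHA. Of the 10, 1 was not called with H93 and 2 were not called with SAHA. The called shares lay above the 69.8% and 58.8% of all kept genes. SRF itself rose to 38.7 ± 1.42 FPKM with H93, against 31.2 ± 0.572 with DMSO (limma adjusted p = 1.06e-05). With SAHA SRF stood at 33.8 ± 1.51, with a limma adjusted p of 0.0194 that was 0.077 and 0.0654 without SAHA replicate 1 and 3, and 0.0705 without DMSO replicate 3. ACTN1, an actin crosslinker, rose to 117 ± 1.27 FPKM with H93 and 112 ± 4.46 with SAHA, against 93.4 ± 2.13 with DMSO, and MRTFB fell to 2.97 ± 0.0834 with H93 and 3.24 ± 0.143 with SAHA, against 4.32 ± 0.188 with DMSO. The Hippo pathway annotation carried by the deposited table, a list added after the values were seen, covered 107 tested genes that are no members. Of them 39 rose and 43 fell with H93, a called share of 76.6%, beside 69.8% of all kept genes. With SAHA 30 rose and 36 fell, a called share of 61.7%, beside 58.8%.

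**Figure D5:**
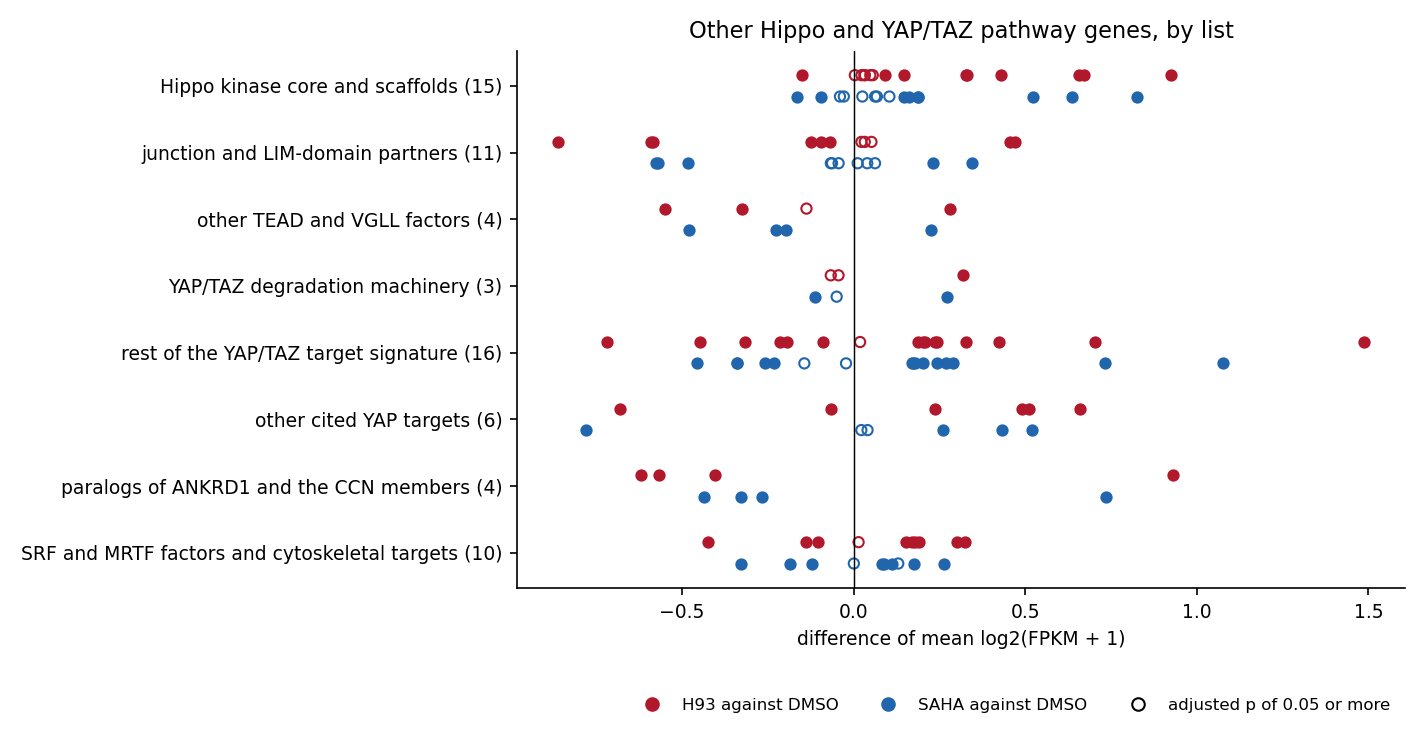
Difference of mean log2(FPKM + 1) for each tested gene of the 8 lists, with H93 against DMSO in red above SAHA against DMSO in blue; filled points had a limma adjusted p under 0.05, and the number of genes is in brackets. Every list holds points on both sides of 0.

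ANKRD1 and AMOTL2 were also compared with all other kept genes by Pearson's r of log2(FPKM + 1) over the 9 libraries. The 5 genes most like ANKRD1, among 267 whose group means differed by at least 1, were CXCL8 (r = 0.999), a neutrophil chemokine, LAMB3 (0.999), a laminin chain, SSR3 (0.999), IL18 (0.999), a cytokine, and B4GALT6 (0.998). LAMB3 had 314 ± 2.95 FPKM with H93, 249 ± 4.47 with SAHA and 146 ± 1.36 with DMSO (n = 3 each). The 5 most like AMOTL2, among 1748 genes whose group means differed by at least 0.5, were LRP1 (r = 0.993), BCL6 (0.992), CHPF (0.990), PRKAB2 (0.988) and GKN2 (0.988). The 9 points are 3 groups of replicates, so r mainly records where SAHA stood between H93 and DMSO. Of the 267 genes 165 had r above 0.9 with ANKRD1, and of the 1748 genes 761 had it with AMOTL2. The largest group difference of AMOTL2 itself was 0.17, below the 0.5 asked of the other genes. GKN2 had a DMSO mean of 0.628 FPKM, under the filter value of 1.

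The summed FPKM ran from 348656 to 355741, and read steps in low values put relative depths between 0.878 and 1.0 of the deepest library. Genes listed above 0 numbered 15213 to 15295 in the H93 libraries and 15186 to 15238 in the SAHA libraries, against 14910 to 14950 in the DMSO libraries, and the part of this difference in the levels of the members was not tested. The epithelial keratin KRT8 was at 730 ± 7.83 FPKM with H93, 714 ± 16.7 with SAHA and 676 ± 11.1 with DMSO, and KRT18 at 663 ± 9.02, 694 ± 17.3 and 682 ± 10.5 in that order. Other epithelial markers differed along with the members. KRT19 was at 420 ± 2.95 with H93, 326 ± 10.8 with SAHA and 169 ± 1.59 with DMSO. CDH1 was at 4.34 ± 0.334 with H93, 5.09 ± 0.199 with SAHA and 13.3 ± 0.0427 with DMSO, and EPCAM at 30.4 ± 1.08, 37.8 ± 1.86 and 67.1 ± 0.918. Fibroblast markers, from a list of 5 of which 3 stayed under 1 FPKM in every library, summed to 3.86 to 4.59 FPKM with H93, 3.84 to 6.62 with SAHA and 2.53 to 3.54 with DMSO. Leukocyte markers summed to at most 0.0833 FPKM and endothelial markers to at most 0.302 FPKM in any library. The prostate luminal marker TMPRSS2 reached at most 0.0621 FPKM. KLK3 and CD3E were not analysed here. The part of these genes in the levels of the members was not tested.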

How the data were processed

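DU145 RNA was isolated with TRIzol and turned into libraries with a TruSeq kit that marks strand, per the labels' protocols. The authors deposited 1 table, in FPKM, which corrects fragment numbers for the length of the transcript and the size of the library. Trimmomatic 0.36, HISAT2 and Cufflinks, and the build GRCh38.p13, are listed without roles or order (from the submitters' processing notes); the sources used here do not give the annotation, the use of strand or any filter. Groups came from sample titles and columns from their names, and all 9 value columns were used. Absolute depth is unknown, so no counting interval was computed.

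Genes with at least 1 FPKM in at least 3 of 9 libraries were kept. Values were moved to log2(FPKM + 1) and the 9 libraries entered 1 limma model with a mean per group (version 3.58.1, R 4.3.3). The prior variance followed mean expression, with 6.05 prior beside 6 residual degrees of freedom, and two-sided p-values had Benjamini-Hochberg adjustment over all kept genes. Values simulated on the log2(FPKM + 1) scale, with known changes, were used to test the limma fit, and the step from FPKM to that scale was not part of it. For members only the difference and its standard error are given. An exact permutation test of 3 against 3 libraries cannot go below 0.1.

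Members and lists were chosen with earlier results of these data known, and the Hippo annotation of the deposited table was added after its values were seen. Named genes were the members, the 3 kept genes of each list with the largest absolute difference in H93 against DMSO, and the 5 genes most like ANKRD1 and AMOTL2; LATS1 was added as the paralog of LATS2. Values of some single genes of the lists are not reported here. The table had no row for VGLL1, VGLL2 and CCN6, which were not analysed here, and VGLL3, CSNK1E, FOXF2, INHBA, CCN4, ACTA2 and CNN1 were below the filter. WTIP, RBMS3 and CCN3 had a group mean under 1. WTIP passed the filter only through the DMSO libraries, and RBMS3 and CCN3 only through the H93 and SAHA libraries. Their calls against DMSO stay in the counts but depend on that filter. Promoter sequences came from RefSeq (GRCh38.p14), matched by Entrez identifier, and positions from GENCODE release 29. Alternatives were a pseudocount of 0.1, no filter, median-ratio rescaling, a replicate block, a fit of the 6 libraries compared alone, and leaving out each library. Same-numbered libraries did not deviate together (correlations from -0.098 to 0.036), so the numbers were not used to pair them, and no batch is given in the labels. Python 3.11.15 with pandas 2.3.3, numpy 2.4.6 and matplotlib 3.10.9 was used.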

Additional observations from a re-analysis of the deposited data

How the results depend on the processing

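Of 420 recomputed member differences none changed sign by more than the spread between libraries. Many of them could not change, since group means stay the same with no filter, with the replicate block and with only the 6 libraries compared. The difference also stays the same where the library left out belongs to the group not compared. The largest shift was 0.041 on the log2 scale, for AMOTL1 in H93 against DMSO with a pseudocount of 0.1 (0.427 in place of 0.386), and leaving out a library shifted none by more than 0.029. Leaving out a library cannot undo a separation of groups, so the number of separated members could not fall and tells nothing of stability. It was 9 for H93 against DMSO without any 1 library, 9 to 10 for SAHA against DMSO and 7 to 8 for H93 against SAHA. Pathway genes called numbered 55, 50 and 28 in the 3 comparisons. With the replicate number as a block the counts were 54, 49 and 26, with only the libraries compared 53, 49 and 23, and without each library 50 to 54, 44 to 51 and 21 to 28. Counts moved by over 1.5 times for these lists. The degradation machinery in SAHA against DMSO had 2 calls, and 1 with median-ratio rescaling, with the replicate block, with only the 6 libraries compared and without SAHA replicate 1 or 3 or DMSO replicate 2 or 3 (1 to 2), since BTRC lost its call. The same list in H93 against DMSO had 1 to 2 calls without each library, 2 of them without H93 replicate 3. In H93 against SAHA the kinase core had 3 to 6 calls without each library (fewest without H93 replicate 3), the other cited targets 3 to 5 (H93 replicate 2 or SAHA replicate 3) and the paralogs 1 to 3 (H93 replicate 1, SAHA replicate 1 or 2), and the paralogs 1 with no filter on low values; the cause was not tested. The unknown depth limits what can be said of genes under 1 FPKM.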
